A study of Mus musculus with 48 samples.

Results

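The 4 tissue inhibitors of metalloproteinases, Timp1, Timp2, Timp3 and Timp4, were followed in the thoracic aorta of 48 mice. They were chosen by symbol, and all 4 were found among the 18782 genes of the deposited count table and passed the filter on low counts, which left 14431 genes for testing. All mice were WT C57BL/6J animals, 3 weeks old at the start, and 1 bulk RNA library was made from each. The paper describes the source of RNA as lesioned segments of the thoracic aorta. It does not say which segment was used in mice without lesions, so the groups may differ in segment. Controls drank normal water, whereas the other mice had 0.4% β-aminopropionitrile (BAPN), which blocks the cross-linking of collagen and elastin, in their drinking water for 28 days. At the end, treated survivors were divided by outcome into AAD (dissection or aneurysm) and NonAD (no lesion detectable under the microscope). The groups were 10 MaCon, 4 MaNonAD and 7 MaAAD males, and 10 FeCon, 8 FeNonAD and 9 FeAAD females. Tissue came from mice alive at the end, so the groups hold none that died of rupture, and since NonAD and AAD were divided by outcome and not assigned, their difference is between outcomes of 1 treatment.

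TIMPs are small secreted proteins that bind the active site of metalloproteinases and block it. Timp1 is the inducible member of the family, Timp2 also helps the membrane protease Mmp14 to activate Mmp2, Timp3 is held in the extracellular matrix and also blocks Adam17 and several Adamts proteases, and Timp4 is the most tissue-restricted member, known from heart and fat. In the aortic wall the balance between these inhibitors and the proteases that digest elastin and collagen has long been studied in aneurysm and dissection.

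The promoter of Timp1 is shown beside that of Timp3. In AAD vs controls of both sexes, Timp1 changed most and Timp3 least of the 4 members. Timp1 is known for a response element for AP-1 and Ets factors just after its start site. Sequences are the RefSeq windows of GRCm38.p6, 5′ to 3′ on the strand of the gene, and all 4 members matched 1 window each. Capitals mark CAGGAAG (Ets), GGGCGG (GC box) or its reverse complement CCGCCC, and TGAGTAA (a variant AP-1 letter string). Timp1 and Timp3 lie on the plus strand.
Timp1, chrX:20869916-20870165, the 250 bases before the start: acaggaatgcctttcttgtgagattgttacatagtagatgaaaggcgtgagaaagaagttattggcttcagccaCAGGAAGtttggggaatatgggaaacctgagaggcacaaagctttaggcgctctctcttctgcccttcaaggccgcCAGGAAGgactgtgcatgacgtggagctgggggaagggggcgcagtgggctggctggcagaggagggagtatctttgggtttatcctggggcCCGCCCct
Timp1, chrX:20870171-20870200, positions 6 to 35, the start being position 1: ttgactccagcggtgggtggaTGAGTAAtg
Timp3, chr10:86300162-86300411, the 250 bases before the start: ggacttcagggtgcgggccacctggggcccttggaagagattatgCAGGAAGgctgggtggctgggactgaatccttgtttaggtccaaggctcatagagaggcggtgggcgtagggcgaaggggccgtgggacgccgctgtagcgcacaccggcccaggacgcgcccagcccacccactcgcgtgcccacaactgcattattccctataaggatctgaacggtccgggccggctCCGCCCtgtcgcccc

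Searched on both strands of the whole 300-base window, TGAGTAA was found in Timp1 at position 27 and in no other member. It is present in 2.68% of the 32851 promoters of the table. CAGGAAG was found 3 times in Timp1, once each in Timp3 and Timp4 and not in Timp2, and 13.3% of promoters hold it. GGGCGG was found in Timp1, Timp2 and Timp3 but not in Timp4, and 35.7% of promoters hold it. The canonical AP-1 letters TGANTCA (7.81% of promoters), the STAT letters TTCNNNGAA (8.30%) and TATAAA (13.6%) were found in none of the 4 windows. CpG pairs numbered 8 in Timp1, 25 in Timp2, 24 in Timp3 and 2 in Timp4, against a median of 7 over all promoters.

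Libraries held 13548003 to 17281262 counts, a range in which the rarest member, Timp4, had 34 to 532 counts and Timp1 239 to 34566. The smooth muscle markers that define the tissue, Acta2 and Myh11 among them, were detected in every group. Summed counts of 4 Y-linked genes were over 50 in 21 of 21 male libraries and 0 of 27 female libraries, the highest female sum being 8. Levels below are CPM, counts brought to a common depth with TMM factors. In the text a gene rose or fell in a comparison where its Benjamini-Hochberg adjusted p, from edgeR's quasi-likelihood test fitted over all 14431 genes, was under 0.05. Smooth muscle markers fell and macrophage markers rose in AAD (8 of 8 markers each in both sexes, and 7 of 8 smooth muscle markers in females without FeAAD5, FeAAD9 and MaAAD7). Of all genes, 23.8% rose and 20.6% fell in FeAAD vs FeCon, and 18.9% rose and 16.1% fell in MaAAD vs MaCon. Of 8 fibroblast markers 4 rose and 1 fell in females and 5 rose in males. In the same order of sexes, 5 and 3 of 5 B cell markers and 5 and 4 of 5 tested neutrophil markers rose. For cartilage cell markers 4 and 4 of 5 rose (1 fell in females). For red blood cell markers 5 and 0 of 5 rose, with FeAAD2 highest at 26910 CPM. The part of these cells in the levels of the Timp genes was not tested, and in bulk tissue fewer cells of a type and less RNA per cell cannot be told apart.

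Timp2 and Timp3 made up nearly all Timp RNA of the control aorta. Levels are compared between genes only per kilobase of the longest transcript (CPM per kb), which is 883 bases for Timp1, 3709 for Timp2, 4722 for Timp3 and 5496 for Timp4. In FeCon, Timp2 averaged 381 ± 46.7 CPM per kb (SD, n = 10), Timp3 309 ± 32.5, Timp1 28.7 ± 6.41 and Timp4 3.06 ± 0.682. The order was the same in MaCon, where the means were 375, 292, 27.7 and 3.92 CPM per kb. Timp2 was above Timp3 in 47 of 48 libraries, and Timp4 was lowest in 48 of 48. With the shortest annotated transcript of each gene, 945 bases for Timp4 and 833 for Timp1, the share of Timp4 in family RNA was 3.23% instead of 0.574% in MaCon, so that the level of Timp4 beside the others depends on the isoform.

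**Figure D1:**
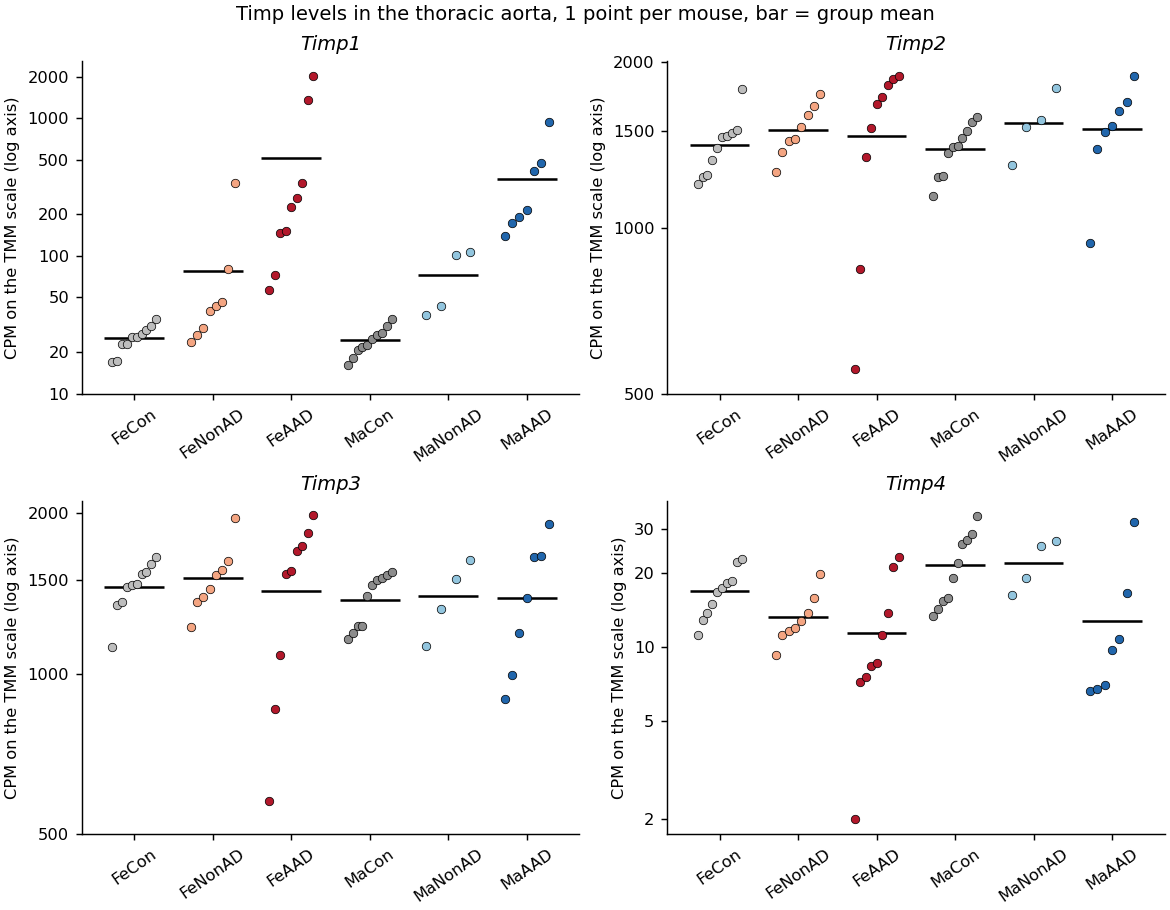
CPM on a log axis of each Timp gene in each library, with 1 point per mouse and a bar at the group mean. All FeAAD and MaAAD libraries lie above all controls of their sex for Timp1, whereas the groups overlap for Timp2, Timp3 and Timp4.

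Timp1 rose strongly in the female aorta with dissection or aneurysm. In FeCon it lay between 16.9 and 35.0 CPM (median 25.8), in FeNonAD between 23.5 and 336 (median 41.7), and in FeAAD between 56.6 and 2044 (median 226). All 9 FeAAD libraries were above all 10 FeCon libraries. The log2 fold change was 4.35 (SE 0.55 and adjusted p = 1.86e-08), or 20.4-fold, and it was larger in size than that of 99.4% of tested genes. Without FeAAD5 it was 3.69. Timp1 was the only member of the 4 that passed in FeAAD vs FeCon, where 44.4% of all genes did.

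FeNonAD and FeAAD overlapped for Timp1, since only 2 FeAAD libraries, FeAAD5 at 2044 CPM and FeAAD9 at 1363 CPM, were above FeNonAD8 at 336 CPM. Timp1 rose in FeAAD vs FeNonAD by a log2 fold change of 2.73 (SE 0.55 and adjusted p = 0.000409), again as the only member of 4, against 18.2% of all genes. It ran from 2.06 without FeAAD5 to 3.64 without FeNonAD8. In FeNonAD vs FeCon it rose by 1.63 (SE 0.51 and adjusted p = 0.0250), with 5 of 8 FeNonAD libraries above every FeCon library. There too it was the only one of 4 members that passed, beside 14.5% of all genes. In that comparison 3 of 8 fibroblast markers and 1 of 5 B cell markers rose, 2 of 8 smooth muscle markers fell and none of 8 macrophage markers passed by edgeR, and their part in the level of Timp1 was not tested. The call rested on FeNonAD8. The other 7 FeNonAD libraries were at 79.9 CPM or less, and without FeNonAD8 the log2 fold change was 0.71 (adjusted p = 0.322).

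The same direction was seen in males. Timp1 lay between 16.2 and 34.6 CPM in MaCon (median 23.7). The 4 MaNonAD libraries were at 101, 37.0, 107 and 43.2 CPM. In MaAAD the level ran from 139 to 942 CPM (median 216). The 3 male groups did not overlap, all 4 MaNonAD libraries being above all MaCon and all 7 MaAAD libraries above all MaNonAD. In MaAAD vs MaCon the log2 fold change was 3.90 (SE 0.55 and adjusted p = 3.42e-07), or 14.9-fold. Timp1 and Timp4 passed in that comparison, 2 of 4 members, beside 35% of all genes.

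The steps through MaNonAD, a group of only 4 mice, did not pass. In MaNonAD vs MaCon Timp1 had a log2 fold change of 1.56 (SE 0.60 and adjusted p = 0.243), and in MaAAD vs MaNonAD of 2.34 (SE 0.74 and adjusted p = 0.0710). With edgeR 0 of 4 members passed in either comparison, where 0.624% and 0.409% of all genes did. At an unadjusted p under 0.05 there were 1 (Timp1) and 2 members (Timp1 and Timp4), and DESeq2 called 0 and 1. Over all genes, 1734 and 2694 of 14431 had an unadjusted p under 0.05 and DESeq2 called 166 and 785. A fit of the 2 groups alone gave Timp1 in MaNonAD vs MaCon an adjusted p of 0.00876 at a log2 fold change of 1.57. For MaAAD vs MaNonAD, DESeq2's adjusted p was 0.0172.

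**Figure D2:**
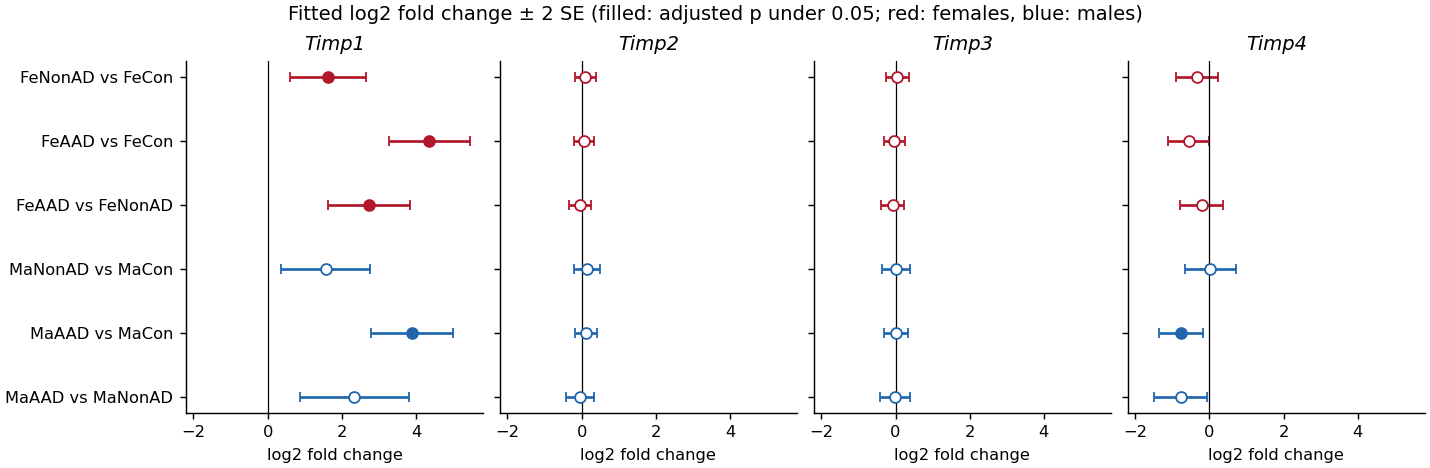
Fitted log2 fold changes of the 4 genes in the 6 comparisons within a sex, with bars of 2 SE either side, filled where the adjusted p was under 0.05. Timp1 lies to the right of 0 throughout, from 1.56 in MaNonAD vs MaCon to 4.35 in FeAAD vs FeCon, while Timp2 and Timp3 lie between -0.08 and 0.15.

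No difference between males and females passed for any member. In MaCon vs FeCon the log2 fold change of Timp1 was -0.05 (SE 0.48), in MaNonAD vs FeNonAD -0.12 (SE 0.65) and in MaAAD vs FeAAD -0.51 (SE 0.54). The shares of all genes that passed were 14.3%, 0.0624% and 0.0901%. By edgeR 0 of 4 members passed in each, as by DESeq2, and at an unadjusted p under 0.05 there was 1 member, Timp4 in MaNonAD vs FeNonAD (log2 fold change 0.73, p = 0.0448, adjusted p = 0.720), as did 934 of all 14431 genes. The difference between the sexes in the response, tested as an interaction, was -0.06 (SE 0.81) for Timp1 from Con to NonAD, -0.45 (SE 0.72) from Con to AAD and -0.39 (SE 0.83) from NonAD to AAD. In these interactions 0.416%, 1.34% and 0% of all genes passed, the last with 150 genes at an unadjusted p under 0.05. In each interaction 0 of 4 members passed by edgeR, as by DESeq2, and 0 had an unadjusted p under 0.05. These directions rested on single libraries. Without FeNonAD8 Timp1 had a log2 fold change of 0.82 in MaNonAD vs FeNonAD, and without FeAAD5 of 0.16 in MaAAD vs FeAAD, and the interactions from Con to NonAD, Con to AAD and NonAD to AAD likewise turned to 0.88 without FeNonAD8 and to 0.21 and 0.27 without FeAAD5. The interval of 2 SE for Timp1 from Con to AAD ran from -1.89 to 0.98, and sex differences within it could not be detected at this spread.

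Timp2 and Timp3 did not pass in any comparison when all libraries were used. Timp2 lay between 1202 and 1789 CPM in FeCon (median 1429), between 1263 and 1753 in FeNonAD (median 1489) and between 555 and 1889 in FeAAD (median 1680). In males it lay between 1144 and 1592 CPM in MaCon (median 1407), at 1797, 1303, 1570 and 1523 in the MaNonAD libraries, and between 940 and 1890 in MaAAD (median 1532). AAD libraries were found both above and below the whole control range, 3 above and 2 below in females and 3 above and 1 below in males. Log2 fold changes were 0.06 (SE 0.14) in FeAAD vs FeCon and 0.12 (SE 0.15) in MaAAD vs MaCon, and over the 6 comparisons within a sex the intervals of 2 SE stayed between -0.41 and 0.51.

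Timp3 also overlapped between the groups. It lay between 1120 and 1655 CPM in FeCon (median 1471), between 1226 and 1958 in FeNonAD (median 1486) and between 575 and 1983 in FeAAD (median 1562). In MaCon it lay between 1160 and 1555 CPM (median 1433), in the MaNonAD libraries at 1636, 1128, 1320 and 1504, and in MaAAD between 895 and 1909 (median 1386). Its log2 fold change was -0.03 (SE 0.15 and adjusted p = 0.897) in FeAAD vs FeCon and 0.01 (SE 0.16 and adjusted p = 0.973) in MaAAD vs MaCon. The spread between mice was wider in AAD, with a coefficient of variation of 12.3% for Timp2 and 10.5% for Timp3 in FeCon against 32.4% and 33.6% in FeAAD, a difference that was not tested. In females it came mainly from FeAAD5 and FeAAD9, since the other 7 FeAAD libraries averaged 1693 ± 199 CPM for Timp2 and 1635 ± 287 CPM for Timp3 (SD). In males the coefficients were 10.5% for Timp2 and 11.4% for Timp3 in MaCon against 19.7% and 27.2% in MaAAD. Without MaAAD7 the other 6 MaAAD libraries averaged 1604 ± 175 CPM for Timp2 and still 1451 ± 368 CPM for Timp3.

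Timp4 was the rarest member, and it fell in MaAAD. In FeCon it lay between 11.2 and 22.7 CPM (median 17.0), in FeNonAD between 9.30 and 19.7 (median 12.4) and in FeAAD between 2.01 and 23.1 (median 8.61). In males it lay between 13.3 and 33.9 CPM in MaCon (median 20.5), at 16.2, 26.9, 25.6 and 19.1 in the MaNonAD libraries, and between 6.64 and 32.1 in MaAAD (median 9.74). Below all controls of their sex were 6 of 9 FeAAD and 5 of 7 MaAAD libraries, but the ranges overlapped. Timp4 fell by 0.75 on the log2 scale in MaAAD vs MaCon (SE 0.30 and adjusted p = 0.0428), and its log2 fold change was -0.56 in FeAAD vs FeCon (SE 0.27 and adjusted p = 0.0956). The male call was marginal: it was lost without 29 of the 48 libraries left out in turn, with adjusted p from 0.00128 to 0.144, and in the female comparison leaving out FeAAD4 or FeAAD8 gave a call (adjusted p = 0.0323 and 0.0251).

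The libraries of highest Timp4 in AAD were rich in fat markers. MaAAD1 had 32.1 CPM of Timp4 and the highest summed level of 8 adipocyte markers of all libraries, 5471 CPM, and of 5 brown adipocyte markers, 2364 CPM. FeAAD8 and FeAAD4, at 23.1 and 21.1 CPM, had the highest brown adipocyte sums of FeAAD, 1339 and 1137 CPM. The median brown adipocyte sum was 268 CPM in MaAAD against 891 in MaCon, and 402 in FeAAD against 580 in FeCon. The 8 adipocyte markers had medians of 1072 CPM in MaAAD against 1513 in MaCon but of 1256 in FeAAD against 1025 in FeCon. All 5 brown adipocyte markers, Cidea and Ucp1 among them, were detected in every group, and none passed in either comparison by edgeR. Of 8 heart muscle markers 5 fell in FeAAD vs FeCon (median log2 fold change -1.10) and 1 fell in MaAAD vs MaCon (median -0.49). Of all genes 20.6% and 16.1% fell there. Without FeAAD5, FeAAD9 and MaAAD7, 1 heart muscle marker (median -1.08) and 2 (median -0.93) fell, where 38.6% and 33.7% of all genes passed. Their sums ran from 44.8 to 144 CPM in FeAAD, 71.8 to 601 in FeCon, 43.1 to 364 in MaAAD and 81.5 to 299 in MaCon. The part of fat or heart tissue in the level of Timp4 was not tested. Without MaAAD1 the male log2 fold change of Timp4 was -1.15 (adjusted p = 0.00128), and in MaAAD vs MaNonAD it was -1.21 (adjusted p = 0.0217) in place of -0.78 (adjusted p = 0.232).

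The make-up of Timp RNA followed Timp1. Timp1 was 4.02 ± 1.10% of the family's CPM per kb in FeCon (SD, n = 10), 9.45 ± 9.51% in FeNonAD (n = 8, median 6.09%, with FeNonAD8 at 31.8%) and 33.7 ± 29.8% in FeAAD (n = 9). In males its share was 3.99 ± 0.991% in MaCon (n = 10), 9.89 ± 4.15% in MaNonAD (n = 4) and 33.9 ± 18.4% in MaAAD (n = 7). Single libraries ran from 7.25% to 89.5% in FeAAD and from 17.6% to 69.6% in MaAAD. Timp1 was the most abundant member per kilobase in 5 of 48 libraries, which were FeAAD5, FeAAD9, MaAAD3, MaAAD5 and MaAAD7. Timp2 remained the most abundant in 42. Since shares sum to 100%, a rise of Timp1 lowers the shares of the other members even where their CPM did not change. The summed family level was 721 ± 68.7 CPM per kb in FeCon and 1288 ± 596 in FeAAD, and 698 ± 59.3 in MaCon and 1115 ± 252 in MaAAD.

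**Figure D3:**
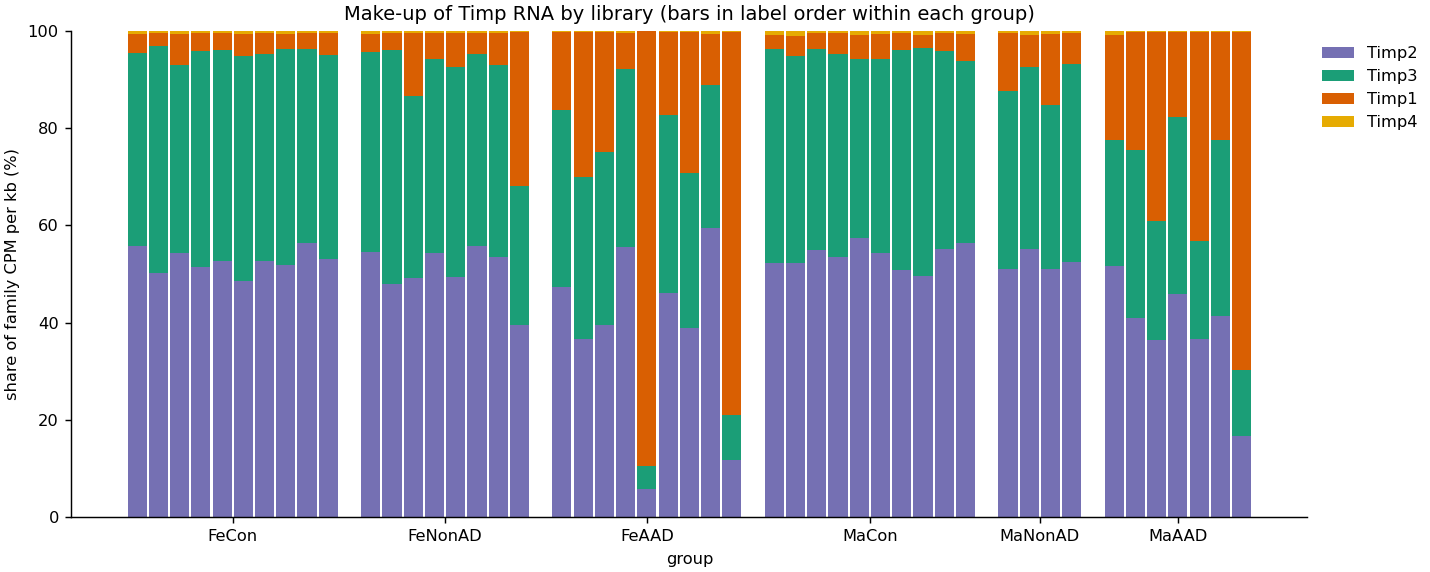
Share of each Timp gene in the family's CPM per kb, with 1 stacked bar per library in label order within each group. The Timp1 part averages 4.02% in FeCon and 3.99% in MaCon and ranges from 7.25% to 89.5% over the FeAAD libraries.

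FeAAD5, FeAAD9 and MaAAD7 stood apart from the rest in Timp1 and Timp2. They held the 3 highest levels of Timp1 in the series, 2044, 1363 and 942 CPM. In the same order Timp2 was at 555, 843 and 940 CPM, below every other library of the series. Timp3 was at 575, 856 and 996 CPM, and of the other libraries only MaAAD1, at 895 CPM, was in this range. FeAAD5 also had the lowest Timp4 level of the series, 2.01 CPM. Among the AAD libraries with 474 CPM of Timp1 or less, Timp2 was never below 1346 CPM.

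These libraries also had the highest sums of 6 neutrophil markers, 881 CPM in FeAAD5, 237 in MaAAD7 and 200 in FeAAD9, whereas no other library was above 54.8 CPM. Median sums were 11.5 CPM in FeAAD against 2.73 in FeCon, and 21.9 in MaAAD against 2.98 in MaCon. Of 5 tested neutrophil markers 5 rose in FeAAD vs FeCon and 4 in MaAAD vs MaCon (of all genes, 23.8% and 18.9% rose). Without these 3 libraries 2 and 4 rose, where 38.6% and 33.7% of all genes passed. Neutrophil sums were 1.13 to 5.76 CPM in FeCon and 1.54 to 10.2 in MaCon, and in FeNonAD 1 defining marker, Ly6g, was at 0 in every library. The sums of 8 macrophage markers were 5465 CPM in FeAAD5, 3615 in MaAAD7 and 958 in FeAAD9, within a range of 593 to 5465 in FeAAD and of 799 to 3615 in MaAAD. In FeCon and MaCon they ran from 244 to 576 and from 200 to 524 CPM. The part of these cells in the levels of the Timp genes was not tested.

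The rise of Timp1 was smaller but remained without these 3 libraries, a choice made after the values had been seen. In FeAAD vs FeCon its log2 fold change was then 2.82 (SE 0.40 and adjusted p = 2.98e-07) and in MaAAD vs MaCon 3.45 (SE 0.41 and adjusted p = 1.29e-08). In FeAAD vs FeNonAD it was 1.19 (adjusted p = 0.0577) and no longer passed, and in MaAAD vs MaNonAD 1.89 (adjusted p = 0.0498). The libraries left out were also those of highest Timp1 and lowest Timp2. The smaller log2 fold changes of Timp1 and its lost call in FeAAD vs FeNonAD therefore follow in part from leaving them out and are no test. The same holds for the higher log2 fold change of Timp2 without them, 0.26 in FeAAD vs FeCon. Timp3 did not pass in either sex.

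**Figure D4:**
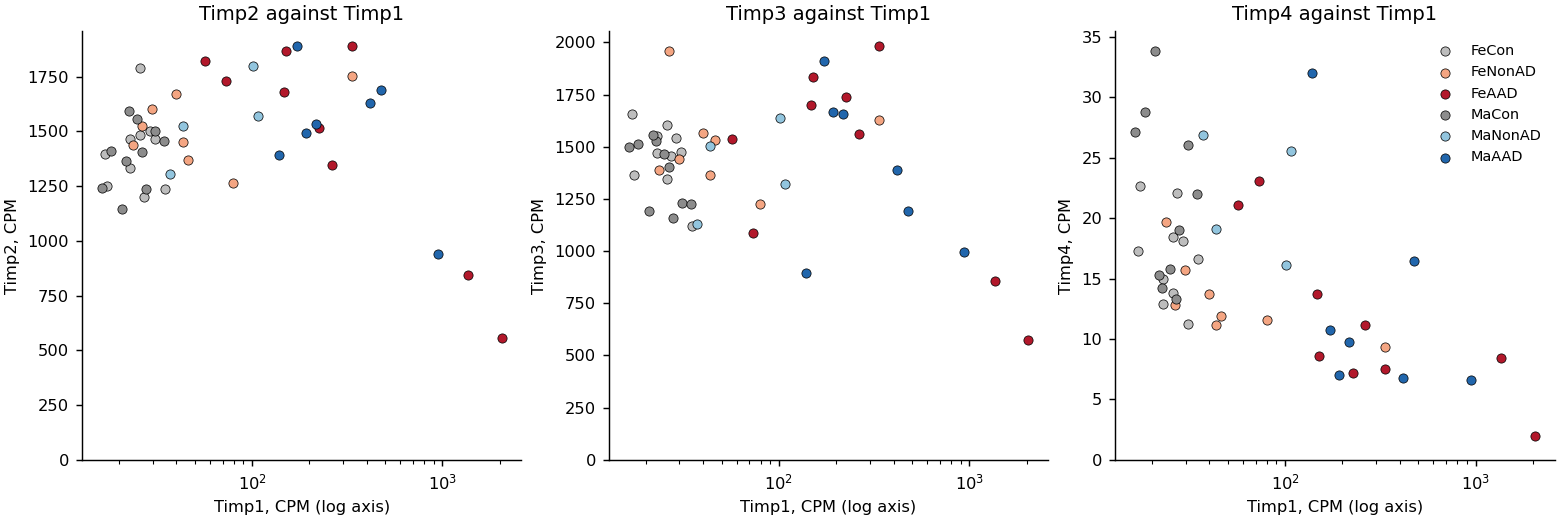
CPM of Timp2, Timp3 and Timp4 (linear axes) against CPM of Timp1 (log axis) in the 48 libraries, coloured by group. FeAAD5, FeAAD9 and MaAAD7 lie at the right, with Timp2 at 555, 843 and 940 CPM.

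The proteases that TIMPs block rose more often than they fell. Of 23 matrix metalloproteinases listed, 21 were in the table and 16 were tested. In FeAAD vs FeCon 11 rose and 2 fell (of all genes, 23.8% rose and 20.6% fell), and in MaAAD vs MaCon 8 rose and 3 fell (18.9% and 16.1%). The median log2 fold change of the 16 was 0.84 in females and 1.02 in males, against 0.00 and -0.03 over all genes. In FeNonAD vs FeCon 3 rose, beside 14.5% of all genes that passed, and in MaNonAD vs MaCon none of the 16 passed by edgeR (0.624% of all genes). In FeAAD vs FeNonAD 8 rose and 1 fell (18.2% of all genes passed), and in MaAAD vs MaNonAD 1 rose (0.409%). Without FeAAD5, FeAAD9 and MaAAD7, 2 rose in FeAAD vs FeNonAD (8.83% of all genes passed) and 3 in MaAAD vs MaNonAD (2.31%).

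Mmp12, the macrophage elastase, rose from 0.948 ± 0.370 to 15.1 ± 23.9 CPM in females and from 1.47 ± 0.648 to 34.7 ± 59.5 CPM in males (SD), with log2 fold changes of 3.98 (SE 0.63) and 4.55 (SE 0.63). Mmp8, the neutrophil collagenase, rose in both sexes but averaged only 1.13 CPM in FeAAD and 1.22 CPM in MaAAD. Mmp2, the gelatinase that Timp2 and Mmp14 activate, rose from 398 ± 66.5 to 656 ± 282 CPM in females (adjusted p = 0.00430) and from 362 ± 40.7 to 757 ± 255 CPM in males (adjusted p = 0.000158). Mmp14 rose in both sexes, by log2 fold changes of 1.10 (SE 0.21) and 0.99 (SE 0.22). Mmp9, the gelatinase whose proenzyme binds Timp1, rose in females (log2 fold change 2.16, SE 0.63, adjusted p = 0.00454), and in males had a log2 fold change of 1.58 (SE 0.65 and adjusted p = 0.0536). Its highest level, 268 CPM, was in FeAAD5.

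Mmp17, a protease anchored to the membrane, fell in both sexes, with log2 fold changes of -0.58 (SE 0.17) and -0.71 (SE 0.19). Mmp28 had log2 fold changes of -0.35 and -0.37 and did not pass. Mmp15 rose in females (0.40, SE 0.16) and fell in males (-0.55, SE 0.17). It was the only protease of the list with a sex difference in the response from Con to AAD that passed (-0.94, SE 0.23, adjusted p = 0.0280).

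Among the ADAM and ADAMTS proteases, of which Timp3 can block some, changes were mixed. Of 8 tested ADAM genes 5 rose and 2 fell in females, and 4 rose and 1 fell in males. Adam8 rose from 3.16 ± 0.738 to 39.4 ± 57.1 CPM in females and from 2.89 ± 0.798 to 54.8 ± 57.9 CPM in males. Adam12 rose with log2 fold changes of 2.75 (SE 0.38) and 2.34 (SE 0.39), and Adam33 fell with -1.01 (SE 0.21) and -1.28 (SE 0.23). Adam17, which releases TNF from the cell surface, rose in females (0.46, SE 0.12) and had a log2 fold change of 0.19 in males (adjusted p = 0.240). Adam15 fell in females (-0.19, SE 0.08) and had -0.05 in males. Of 16 tested ADAMTS genes 4 rose and 2 fell in females and 4 rose and 1 fell in males, with medians of 0.00 and 0.10, shares close to the 23.8% and 18.9% of all genes that rose. Adamts12 rose in both sexes (1.36, SE 0.22, and 1.06, SE 0.23). Adamts9 fell in both (-1.25, SE 0.18, and -0.56, SE 0.19), and Adamts4, an aggrecanase, rose in females (1.91, SE 0.44) with 0.58 (adjusted p = 0.337) in males. Adamts15 fell in females (-0.55, SE 0.22) and had -0.16 in males.

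Of 9 binding partners and receptors of TIMPs, 4 rose and 1 fell in females (of all genes, 23.8% rose and 20.6% fell) and 2 rose in males (18.9% rose), Mmp2, Mmp9 and Mmp14 being among the 9. Without FeAAD5, FeAAD9 and MaAAD7, where 38.6% and 33.7% of all genes passed, 2 rose and 1 fell in females and 4 rose in males, and none of the 9 passed by edgeR in the sex difference from Con to AAD over all libraries (1.34% of all genes). Cd63, a surface receptor of Timp1, rose in females from 310 ± 48.5 to 523 ± 313 CPM (log2 fold change 0.75, SE 0.18, adjusted p = 0.000749). In males it had a log2 fold change of 0.47 (SE 0.19 and adjusted p = 0.0561), and FeAAD5 held its highest level, 1210 CPM. Itga3, an integrin subunit that serves as a Timp2 receptor, fell in females (-0.63, SE 0.14) and had -0.35 in males (adjusted p = 0.0635). Itgb1, its partner subunit, and Lrp1, which takes up TIMPs from outside the cell, did not pass in either sex. Of the inhibitors outside the family, Reck, a membrane-bound inhibitor of metalloproteinases, had log2 fold changes of -0.18 (SE 0.18) and -0.03 (SE 0.19) and did not pass. A2m, the general protease trap, averaged 1.03 CPM or less in each group and did not pass in the 2 comparisons of AAD with controls. It was lower in FeNonAD (adjusted p = 0.00584, edgeR) and in MaCon (adjusted p = 0.00933) than in FeCon, where its mean was 1.03 ± 2.43 CPM (SD) and FeCon10 alone held 7.87 CPM. Without FeAAD5, FeAAD9 and MaAAD7, 1 of the 2 tested inhibitors outside the family fell in FeAAD vs FeCon.

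Cytokines and transcription factors known to induce Timp1 also rose. Of 14 listed, 11 rose and none fell in each sex (of all genes, 23.8% rose in females and 18.9% in males), with medians of 1.98 in females and 2.02 in males. In FeNonAD vs FeCon 2 rose and 1 fell, beside 14.5% of all genes that passed. Il6 averaged 0.0969 CPM in FeCon and 8.02 in FeAAD, and 0.0524 CPM in MaCon and 4.62 in MaAAD. Il1b averaged 0.151 and 18.3 CPM in the female groups and 0.191 and 8.48 in the male groups, and FeAAD5 held its highest level, 109 CPM. Runx1, a transcription factor, rose from 5.38 ± 1.74 to 28.9 ± 16.5 CPM in females and from 4.13 ± 1.20 to 31.7 ± 10.7 CPM in males. Jun, an AP-1 subunit, did not pass (-0.23, adjusted p = 0.420 in females, and -0.59, adjusted p = 0.0532 in males). Stat3, which carries signals of the Il6 family, rose in males (0.52, SE 0.11) and had -0.17 in females, a difference that passed as an interaction (0.69, SE 0.15, adjusted p = 0.0129). Without FeAAD5, FeAAD9 and MaAAD7, 9 of these 14 genes rose and 1 fell in females and 11 rose in males.

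**Figure D5:**
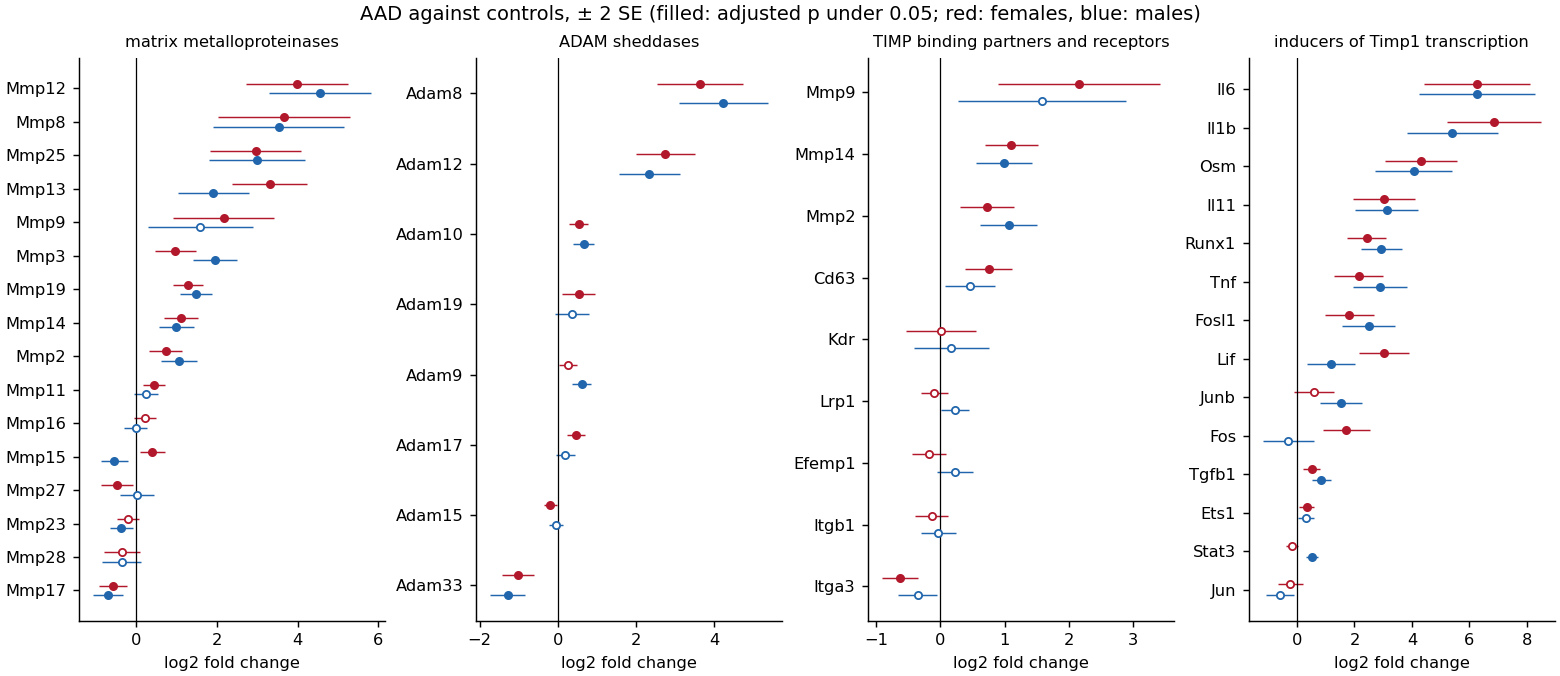
Log2 fold changes of AAD against controls in females (red) and males (blue) for tested metalloproteinases, ADAM sheddases, TIMP partners and inducers of Timp1, with bars of 2 SE either side and filled points where the adjusted p was under 0.05. Il6 and Il1b lie farthest to the right and Adam33 farthest to the left.

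Timp1, Timp3 and Timp4 each lie within a synapsin gene on the opposite strand, Syn1, Syn3 and Syn2, and Cep295nl lies within Timp2 on the same strand. The synapsins, proteins of nerve endings, were low, at 2.01 to 8.24 CPM in group means. Syn1 had log2 fold changes of 0.26 and 0.41 in AAD vs controls and did not pass in the sexes in which Timp1 rose. Syn3 fell in both sexes (-0.91, SE 0.21, and -1.27, SE 0.23) while Timp3 did not pass. Syn2 fell in both (-1.14, SE 0.26, and -0.73, SE 0.28), as Timp4 did in males. Timp4 and Syn2 share 90 exon bases on opposite strands, and whether counting used the strand is not given in the sources used here. Of the expected counts of Timp4 and of Syn2, 0 were not whole. Whether the 2 genes share counts was not tested. The other pairs share 0 exon bases.

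The genes whose levels followed each member most closely differed between members. Likeness was Pearson's r of log2(CPM + 1) over the 48 libraries, among 13710 genes averaging at least 10 counts, and is a description, since libraries of a group share treatment and outcome. Among the closest to Timp1 were Tubb3 (r = 0.965), a tubulin, Fkbp11 (0.959), Fgr (0.957), a kinase of myeloid cells, and Nxpe5 (0.956). Closest to Timp2 were Itgbl1 (0.908), Ace (0.883), the angiotensin-converting enzyme, Fbln5 (0.877), an elastic fibre protein, Pcdhgc3 (0.860) and Col4a3 (0.855). Closest to Timp3 was Reck (0.884), followed by Phactr2 (0.850), Ids (0.849), Ccnd2 (0.840) and Golim4 (0.838). Closest to Timp4 were Ybx2 (0.855), Pdk2 (0.822), Sirt3 (0.819), Cidea (0.818), a lipid droplet protein of brown fat, and 4430402I18Rik (0.812).

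Several of these genes were again among the 5 closest when each library was taken as its deviation from its group mean. FeAAD5, FeAAD9 and MaAAD7 were extreme in Timp1 and Timp2 within their groups too. Their weight in either measure was not tested. Tubb3 (r = 0.915) and Fkbp11 (0.899) were again closest to Timp1, followed by Olr1 (0.891), a receptor for oxidised LDL, Fgr (0.883) and Trem1 (0.882), a myeloid receptor. Reck (0.898) was again closest to Timp3 and Ybx2 (0.805) to Timp4, whose next were Cyp2b10 (0.798) and Cidea (0.777). Closest to Timp2 were Prelp (0.952), Ace (0.935) and Itgbl1 (0.913). Between members, Timp2 and Timp3 had r = 0.773 over the libraries and 0.788 over the deviations. In the same order Timp1 had -0.268 and -0.550 with Timp2, -0.341 and -0.464 with Timp3, and -0.698 and -0.637 with Timp4. Timp4 had 0.276 and 0.350 with Timp2, and 0.0645 and 0.0507 with Timp3.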

How the data were processed

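Bulk RNA libraries of the thoracic aorta, 1 per mouse (n = 48), were analysed. The authors deposited expected counts per gene, listed by symbol and not scaled to depth. The submitters' notes name Bowtie2, RSEM 1.3.1 and GRCm39. Libraries were strand-specific according to the labels. Of the values 4.99% were not whole, none of them in the Timp rows, and all were rounded. The design had spoken of raw counts. After filterByExpr, 14431 of 18782 genes were normalized by TMM and tested with edgeR 4.0.16 (quasi-likelihood, robust, a mean for each of the 6 groups) in R 4.3.3, with Benjamini-Hochberg adjustment over all tested genes. In 9 pairwise comparisons and 3 interactions, SEs are the log2 fold change over the root of F. The procedure was tested on simulated data. Transcript lengths and neighbours came from GENCODE M21 (GRCm38), promoters from RefSeq (GRCm38.p6), matched by symbol. Alternatives were DESeq2 1.42.0 and its size factors, library totals, no filter, no robust estimation, replicate number as a block, the compared groups only, a log2 threshold of 1, each library left out, CPM without TMM factors, and, added later, 3 libraries left out. Groups came from the labels. Replicates were separate mice. The members and gene lists were chosen with earlier results of these data known. Besides the members, named genes were the 2 largest and 2 smallest mean changes of AAD vs Con of a list, a set of known partners, and the 5 genes most like each member, of which 1 is not reported here.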

Additional observations from a re-analysis of the deposited data

Results flagged for a closer look

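In each group of 4 to 10 libraries the highest and lowest CPM of each member were compared with their nearest neighbour by Dixon's criterion. Its rate of about 1 of 20 groups holds for normally distributed values. CPM were skewed in some groups, as for Timp1 in MaAAD (mean 364, median 216), so the number of flags cannot be set against that rate. Of 24 sets of a member and a group, 4 held such a value. Timp1 was at 336 CPM in FeNonAD8, with the next FeNonAD library at 79.9 CPM, and that mouse was labelled as free of a lesion. Timp1 was at 942 CPM in MaAAD7, with the next MaAAD library at 474 CPM. Timp2 was at 1789 CPM in FeCon9, with the next FeCon library at 1503 CPM. Timp4 was at 32.1 CPM in MaAAD1, with the next MaAAD library at 16.5 CPM. FeNonAD8 also had the highest macrophage marker sum of FeNonAD (850 CPM), the highest fibroblast marker sum of that group (31946 CPM) and the lowest Timp4 level (9.30 CPM).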

How the results depend on the processing

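Over 56 alternatives, 2641 of 2688 values of the 48 combinations of a member and a comparison stayed on their side of the threshold, 47 did not, and no called value changed sign, while 115 values that no fit called did. The rise of Timp1 in AAD vs Con held in both sexes under every alternative run. Its log2 fold change was 1.35 in FeNonAD vs FeCon with replicate number as a block, which left 0 members called there. Same-numbered samples of different groups did not deviate together (r from -0.532 to 0.472), so the numbers pair nothing and no blocked value is given elsewhere. In MaNonAD vs MaCon the compared groups alone gave Timp1 1.57 and 1 member called. In MaAAD vs MaNonAD Timp1 was 2.35 with DESeq2 and 1.89 without the 3 libraries of high neutrophil markers, 1 member being called by each. Without those libraries Timp1 was 1.19 in FeAAD vs FeNonAD (0 members called, 8.83% of all genes) and Timp2 0.26 in FeAAD vs FeCon (2 called with Timp1, 38.6% of all genes). Timp4 in MaAAD vs MaCon lost its call with DESeq2 size factors (-0.73), library totals (-0.68), no filter (-0.72), the compared groups alone (-0.73) and without the 3 libraries (-0.64), which left 1 member called in each, as did a log2 threshold of 1. The cause was not tested.

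With each library left out in turn, Timp1 ran from 0.71 (without FeNonAD8) to 1.76 in FeNonAD vs FeCon, with 0 to 1 members called, and from 1.89 to 2.59 in MaAAD vs MaNonAD, with 0 to 2 called. There Timp1 passed without MaAAD1 (2.46), FeNonAD8 (2.32) or FeAAD5 (2.34). Timp4 ran from -1.21 to -0.65 in that comparison, from -0.75 to -0.41 in FeAAD vs FeCon (1 to 2 called) and from -1.15 to -0.59 in MaAAD vs MaCon (1 to 2 called). Of the 17 libraries of MaAAD and MaCon only 3 could be left out with the Timp4 call kept (MaCon4, MaAAD1 and MaAAD5), and of the other 31 libraries 16. Timp4 had an SD of 9.18 on a mean of 12.8 CPM in MaAAD, and MaNonAD held 4 mice. The part of this spread and of group size in the calls was not tested.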
